A study of Mus musculus with 6 samples.

Results

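The genes described here encode the engine of the cell cycle and its close relatives: the cyclins, the cyclin-dependent kinases (CDKs), the CDK inhibitors, and the E2F factors and pocket proteins that CDKs act on. The members are protein-coding rows of the deposited table whose symbol begins with Ccn, a letter from a to y and a digit, or is Cdk with a number, or is an INK4 or CIP/KIP inhibitor of the Cdkn1 and Cdkn2 series. E2f1 to E2f8, Rb1, Rbl1 and Rbl2 were added, and Cdkn1a, Cdkn1c and Ccng1 were left out. This gave 50 genes of 55573 rows, 21884 of them protein-coding. RNA was sequenced from 3 libraries of Hepa1-6 cells labelled as Matr3 knockout, made with CRISPR/Cas9, and from 3 libraries of wild-type Hepa1-6 cells. Hepa1-6 is labelled as a mouse liver cancer line, and all cells grew in DMEM with fetal bovine serum. Matr3 encodes matrin 3, a nuclear protein that binds nucleic acids. Whether libraries of 1 group are separate cultures or clones is not stated in the labels. Every p-value here therefore measures the spread between libraries alone, and that spread may be technical.

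As background, a cyclin binds its CDK and switches it on, and each pair acts in its own part of the cell cycle. D-type cyclins with CDK4 or CDK6 respond to growth signals and begin the phosphorylation of the pocket proteins RB, p107 and p130, which hold E2F factors in check. Released E2F activators drive the E-type cyclins, which act with CDK2 at entry into S phase. Cyclin A then serves S phase and cyclin B, with CDK1, mitosis. INK4 proteins block CDK4 and CDK6, while CIP/KIP proteins act mainly on the CDK2 complexes. A further branch of the family, among them CDK7, CDK8, CDK9 and CDK12, acts on transcription.

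Libraries held 20736570 to 30794032 counts, and the 50 genes took 0.370% to 0.402% of them. Matr3, the targeted gene, had levels of 76.0, 86.1 and 75.3 CPM (counts scaled to library size with TMM factors) in the knockout against 129, 125 and 134 CPM in the wild type, so its transcript was lower but present (log2 fold change -0.71, edgeR adjusted p = 0.00270). Knockout library 2 stood apart from knockout libraries 1 and 3 (log2 CPM correlations of 0.982 and 0.982, against 0.994 between those). Its deviation correlated with the GC content of genes at -0.27, against 0.26 in knockout libraries 1 and 3. For wild-type libraries 1, 2 and 3 that correlation was -0.03, -0.03 and -0.16. All 3 knockout libraries thus had a GC trend, in opposite directions. Wild-type library 1 stood apart from wild-type libraries 2 and 3 (0.983 and 0.984, against 0.993). The labelled liver origin was checked against 10 hepatocyte and hepatoma markers. Ttr, Serpina1a and Fgb had 0 counts in every library, the means of Alb, Apoa1 and Hnf4a were at or below 0.0156 CPM in each group, and the summed list lay at 17.7 to 25.01 CPM in the knockout and 20.5 to 25.2 in the wild type, mostly from Foxa2. Afp had means of 2.79 CPM in the knockout and 4.81 in the wild type and was not called (edgeR adjusted p = 0.0505). Of the 10 markers only 2, Foxa2 and Afp, had counts enough to be tested. The list thus did not show a hepatocyte profile, and the name of the line rests on the label. The cholangiocyte list, carried by Krt19 and Spp1, summed to 947 to 995 CPM in the knockout and 764 to 874 in the wild type. The fibroblast list, carried by Col3a1, summed to 544 to 659 and 597 to 696 CPM, the leukocyte list to 12.4 to 16.0 and 10.7 to 11.9, and the endothelial list to 1.16 to 1.66 and 3.04 to 3.89. Within these lists 6 markers were called by edgeR. Krt19 (log2 fold change 1.18), Col1a1 (0.81) and Des (0.58) were higher in the knockout, and Spp1 (-0.75), Pdgfrb (-1.39) and Cdh5 (-2.27) were lower. The part of these marker lists and of the 2 libraries in the results was not tested.

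Of the 50 genes, 44 were tested. In the libraries labelled knockout, 3 of them were higher and 5 lower than in the wild type (adjusted p under 0.05 over all genes tested, by edgeR's quasi-likelihood fit). The fallers were both E-type cyclins, Ccne1 and Ccne2, the kinases Cdk18 and Cdk6, and the factor gene E2f4. The risers were the INK4 inhibitor Cdkn2d, the cyclin gene Ccng2 and the pocket protein gene Rbl1. The share called, 18.2%, is near that of all 14842 tested genes, 15.2%, of which 7.69% were higher and 7.48% lower. Of the tested protein-coding genes 17.5% were called. Scaled by library totals alone, the members split into 5 higher and 4 lower. Sizes were modest, from -0.92 to 0.68 on the log2 scale, and 36 members did not pass. The members' median log2 fold change was -0.10, against -0.02 for all tested genes, with 14 members above 0 and 30 below, against 7090 above and 7749 below of all tested genes. The order of these medians turned under DESeq2 (-0.09 for the members, -0.12 for all genes) and with no filter on low counts (-0.05 and -0.08). Both of those fits took in all 27065 genes with a count and 45 members, against 14842 and 44. Their medians for all genes are therefore over another set of genes, with many low counts. In 19 of the 44 the groups did not overlap, 7 with the knockout above and 12 below, a share of 43.2% against 36.6% of all tested genes (18.3% above, 18.4% below) and 40.5% of the protein-coding ones. In bulk RNA, fewer cells in a phase of the cycle and less RNA per cell cannot be told apart.

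**Figure D1:**
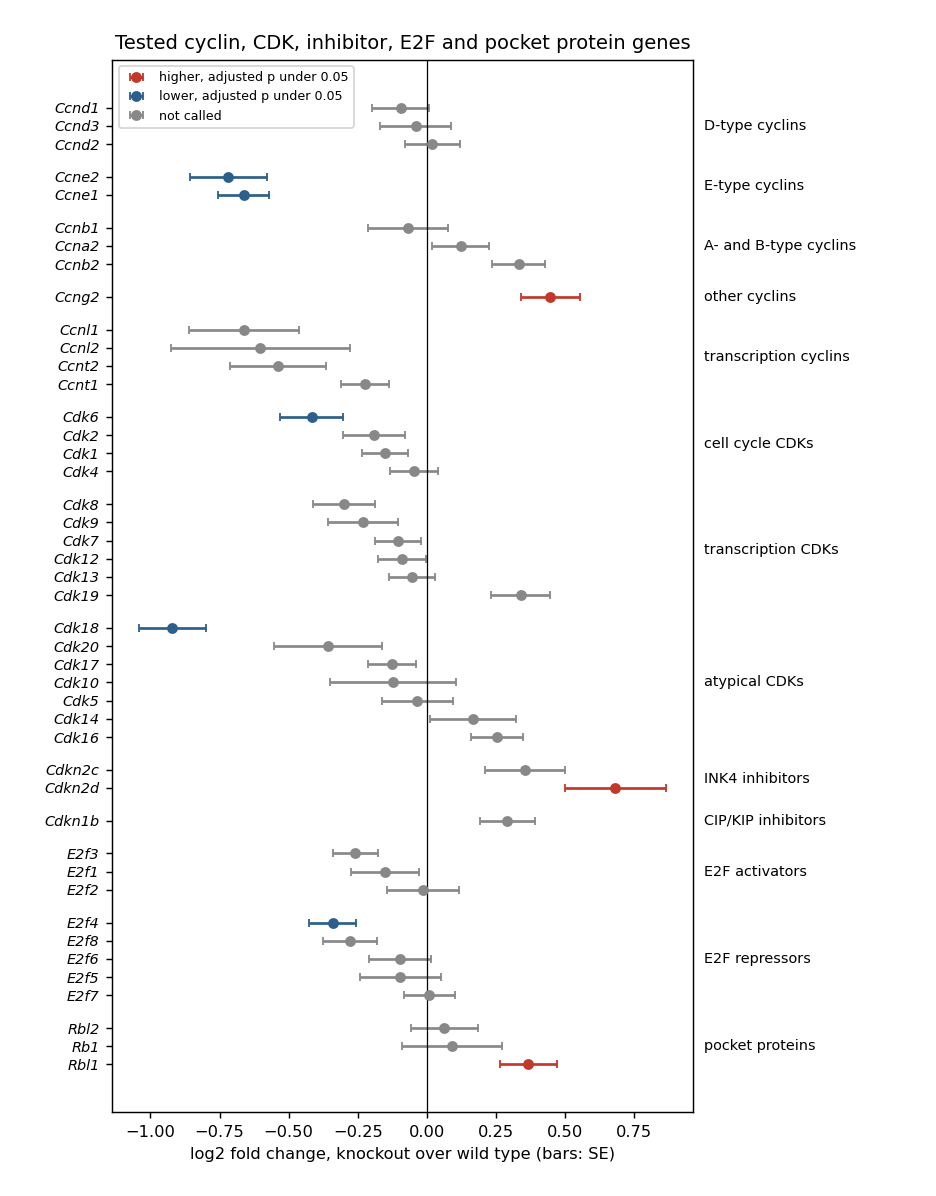
Log2 fold change, knockout over wild type, on the horizontal axis for the 44 tested genes grouped by role, with bars for the standard error of the fit. The 5 blue points are the genes called lower, from Cdk18 at -0.92 to E2f4 at -0.34, and the 3 red points those called higher, with Cdkn2d at 0.68 farthest to the right.

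The number of calls depended on single libraries. Leaving out knockout library 1, knockout library 3 or wild-type library 3 gave 2 calls each. That is 4.5% of the tested members, where 5.6%, 5.4% and 5.3% of all tested genes were called. There were 4 without wild-type library 2 (9.1%, against 6.1% of all) and 5 without wild-type library 1 (11.4%, against 13.5%). Without knockout library 2 there were 16. Those 16 are 36.4% of the tested members, where 28.1% of all tested genes were called. Without knockout library 2 and wild-type library 1 together, 25 members (56.8%) and 51.0% of all tested genes were called. The libraries left out of that fit are those that stood apart in these same data. Those kept are the most alike of each group (log2 CPM correlations of 0.994 and 0.993). Counts from that fit are therefore no separate support for any call. Ccne1 and Cdk18 were called in each of the 6 fits without 1 library and in all 19 alternative settings. Ccne2 was called in 15 of 19 settings, Ccng2 in 13, E2f4 in 10, Cdkn2d and Rbl1 in 9 each and Cdk6 in 8.

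**Figure D2:**
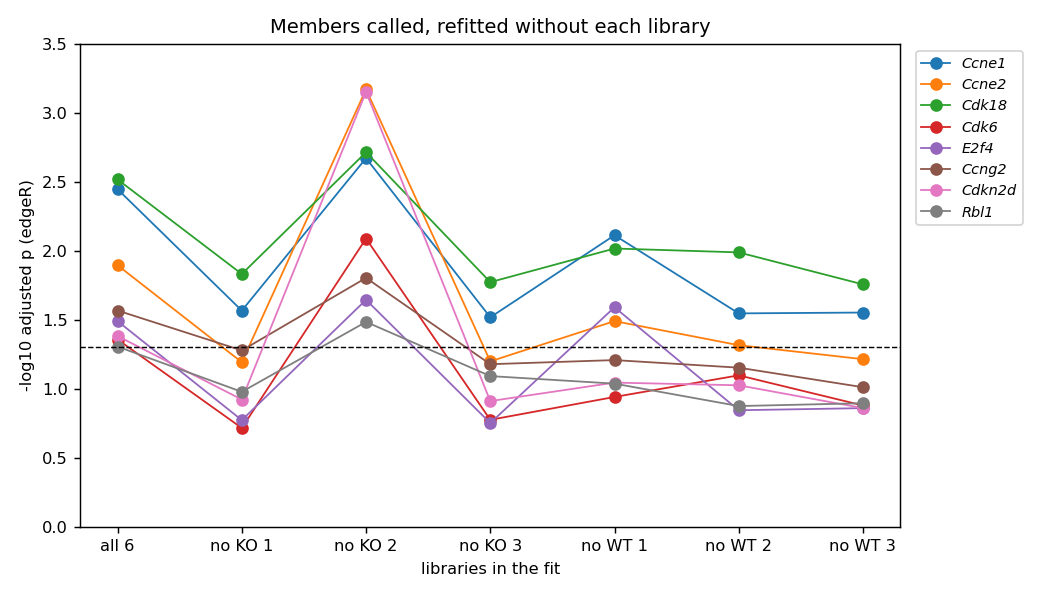
The vertical axis is minus log10 of the edgeR adjusted p for the 8 genes called, and the horizontal axis starts with all 6 libraries and then names the library left out of the fit; the dashed line marks 0.05. Ccne1 and Cdk18 stay above the line in every fit, and the other 6 genes fall below it in at least 3 fits.

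Both E-type cyclins, which activate CDK2 at the start of S phase, were lower in the knockout. Ccne1 (ENSMUSG00000002068; chromosome 7, 37797409 to 37806959, minus strand) measured 27.9, 27.6 and 27.1 CPM across the knockout libraries and 40.1, 44.7 and 46.0 across the wild type. The knockout libraries lay within 1 CPM of each other and all below the wild type. Group means were 27.6 ± 0.437 and 43.6 ± 3.13 CPM (SD, n = 3 each), which is 1.58-fold lower (log2 fold change -0.66, SE 0.0921, edgeR adjusted p = 0.00357). Ccne2 (ENSMUSG00000028212; chromosome 4, 11191351 to 11204779, plus strand) measured 34.4, 46.7 and 34.1 CPM across the knockout libraries and 59.1, 61.6 and 68.9 across the wild type. Knockout library 2 was the closest to the wild type, and the groups did not overlap. The log2 fold change was -0.72 (SE 0.139, edgeR adjusted p = 0.0127), and the call was lost when library 1 or 3 of the knockout or library 3 of the wild type was left out (edgeR adjusted p up to 0.0641). Per length, on the authors' FPKM scale, the pair summed to 21.4 ± 2.21 in the knockout and 34.2 ± 2.84 in the wild type (SD, n = 3 each). Ccne1 made up 43.7% to 51.6% of that sum in the knockout and 46.7% to 48.8% in the wild type, so both genes carried similar parts of it. Cdk2, their kinase, was at 77.6, 65.6 and 78.3 CPM against 94.6, 80.7 and 77.8, groups that overlapped (log2 fold change -0.19, SE 0.112, edgeR adjusted p = 0.283).

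The sequence just before the transcription start is shown for Ccne1 and Cdk18, the genes called in every setting, and for Rbl1 and Ccnb2, whose windows hold known cell cycle motifs. Each is the 250 bases before the start in the gene's own direction, from RefSeq on GRCm38.p6, on the minus strand in all 4: chr7:38107491-38107740 for Ccne1, chr1:132139686-132139935 for Cdk18, chr2:157204535-157204784 for Rbl1 and chr9:70421555-70421804 for Ccnb2. These positions cannot be set against the deposited gene coordinates given elsewhere in the text, which do not match GRCm38. Capitals mark matches to 3 motifs, searched on both strands: the E2F site (TTTCCCGC, TTTGGCGC, TTTCGCGC or TTTGCCGC), the CHR element (TTTGAA or TTCGAA) bound by the DREAM and MuvB complexes, and the CCAAT box (CCAAT) bound by NF-Y.
Ccne1: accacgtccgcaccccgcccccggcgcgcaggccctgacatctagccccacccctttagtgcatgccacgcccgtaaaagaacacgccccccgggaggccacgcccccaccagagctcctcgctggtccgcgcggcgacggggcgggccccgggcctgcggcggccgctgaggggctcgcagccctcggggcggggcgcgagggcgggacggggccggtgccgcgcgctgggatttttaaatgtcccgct
Cdk18: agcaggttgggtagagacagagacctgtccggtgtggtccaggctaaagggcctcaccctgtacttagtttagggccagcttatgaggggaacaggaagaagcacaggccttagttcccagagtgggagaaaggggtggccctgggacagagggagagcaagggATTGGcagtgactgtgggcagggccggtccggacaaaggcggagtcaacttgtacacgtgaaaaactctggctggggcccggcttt
Rbl1: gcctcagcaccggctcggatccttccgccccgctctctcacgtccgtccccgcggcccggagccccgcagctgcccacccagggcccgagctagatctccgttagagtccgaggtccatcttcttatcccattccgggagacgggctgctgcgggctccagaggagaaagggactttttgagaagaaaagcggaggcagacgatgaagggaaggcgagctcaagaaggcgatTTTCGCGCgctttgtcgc
Ccnb2: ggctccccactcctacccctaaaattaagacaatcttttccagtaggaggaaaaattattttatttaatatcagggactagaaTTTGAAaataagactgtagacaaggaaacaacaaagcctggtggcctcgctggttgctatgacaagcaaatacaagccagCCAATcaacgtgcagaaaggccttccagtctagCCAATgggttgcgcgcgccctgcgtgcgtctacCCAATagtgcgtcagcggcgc

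The Ccne1 window is 76.0% G and C with 34 CpG pairs and holds none of the 3 motifs in these letters. The Rbl1 window holds 1 E2F site, 18 bases before the start. The Ccnb2 window holds 3 CCAAT boxes, at 87, 54 and 21 bases before the start, and 1 CHR element farther up, at 167. The Cdk18 window holds 1 CCAAT box. Of the 50 genes, 40 had a window in the RefSeq table, 46 windows in all. An E2F site stood in 6 of the 46 (13.0%), those of Cdk1, Cdk2, Cdkn2a, E2f3, E2f7 and Rbl1, and in 1.86% of all 32851 windows. The CHR element stood in 8 windows (17.4%, against 17.1% of all) and the CCAAT box in 19 (41.3%, against 33.9%). Among the 6 genes with an E2F site, Rbl1 was called higher, 4 were not called and Cdkn2a had no counts. A match is a string of letters and no evidence that a factor binds.

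No D-type cyclin was called, and neither was Cdk4, the partner of these growth-signal sensors. Ccnd1 was at 225, 204 and 232 CPM in the knockout and at 210, 254 and 242 in the wild type (log2 fold change -0.09, SE 0.103). Ccnd2 was at 95.3, 106 and 94.5 CPM against 87.4, 103 and 102 (0.02, SE 0.0995). Ccnd3 was at 130, 94.6 and 126 CPM against 112, 127 and 120 (-0.04, SE 0.129), with knockout library 2 the lowest of the 6. The groups overlapped for all 3 genes, and their edgeR adjusted p lay between 0.572 and 0.915. Per length, Ccnd1 took 65.8% to 66.9% of the D-type FPKM in the knockout libraries and 66.8% to 67.9% in the wild type. Cdk4, the most abundant member per length, stood at 131 ± 7.22 and 134 ± 5.77 FPKM (SD, n = 3 each), and at 437, 395 and 440 CPM against 422, 444 and 448 (-0.05, SE 0.0879, edgeR adjusted p = 0.752). Its relative Cdk6 was far lower, at 2.37 ± 0.278 and 3.15 ± 0.251 FPKM, between 1.08% and 1.74% of the sum of Cdk1, Cdk2, Cdk4 and Cdk6.

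Cdk6 (ENSMUSG00000040274; chromosome 5, 3391485 to 3581008, plus strand) passed the test, and the other 3 kinases did not. It was at 29.8, 37.1 and 32.5 CPM in the knockout and at 48.4, 40.5 and 44.1 in the wild type. Each knockout library lay below each wild-type library, with knockout library 2 and wild-type library 2 closest. The log2 fold change was -0.42 (SE 0.115, edgeR adjusted p = 0.0439). The call was lost when any 1 library except knockout library 2 was left out (edgeR adjusted p up to 0.192).

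**Figure D3:**
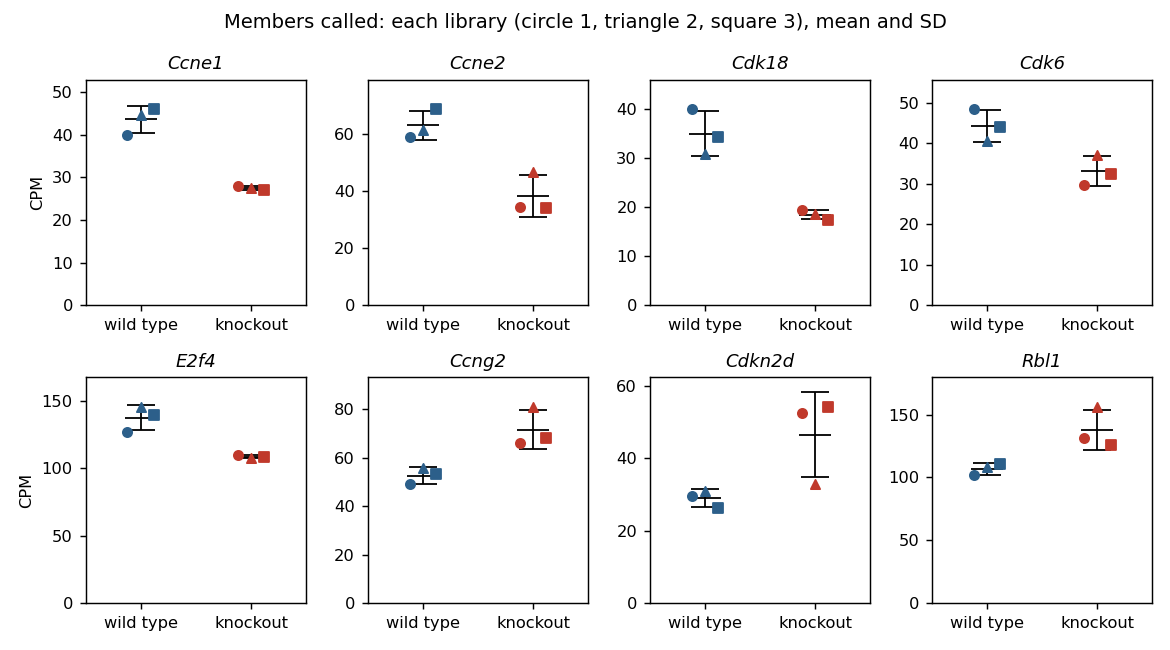
CPM on a vertical axis that starts at 0, for the 8 genes called, with 1 symbol per library and the mean and SD in black. The groups do not overlap in any panel. In Cdkn2d the triangle of knockout library 2, at 33.0 CPM, lies close to the wild-type libraries, and in Ccne2 it lies closest to them of the knockout libraries.

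Of the 4 INK4 genes, Cdkn2d was called higher, Cdkn2c was not called and the others had no counts. Cdkn2a, which encodes p16 and p19ARF, and Cdkn2b, which encodes p15, had 0 counts in all 6 libraries. A count of 0 allows up to 0.0974 to 0.145 CPM in a library, covering counting error only. In the table's coordinates they lie side by side on the minus strand of chromosome 4, at 89192708 to 89212890 and 89224536 to 89229276. The nearest protein-coding gene on one side, Mtap, had 2883 to 4771 counts in the knockout libraries and 3683 to 5365 in the wild type, and on the other side Dmrta1 had 1 count in all. These neighbours were chosen after their values were seen. Cdkn2d (ENSMUSG00000096472; chromosome 9, 21199706 to 21202703, minus strand), which encodes p19 of the INK4 family, measured 52.4, 33.0 and 54.2 CPM across the knockout libraries and 29.7, 30.99 and 26.3 across the wild type. Knockout libraries 1 and 3 were high, and library 2 was just above the highest wild-type library. Group means were 46.5 ± 11.8 and 29.0 ± 2.43 CPM (SD, n = 3 each), which is 1.60-fold higher (log2 fold change 0.68, SE 0.184, edgeR adjusted p = 0.0414). The call was lost when any 1 library except knockout library 2 was left out (edgeR adjusted p up to 0.138). The gene's transcript is 55.8% G and C, and with each library's trend on GC content removed the log2 fold change was 0.59 (edgeR adjusted p = 0.0152). Cdkn2c, which encodes p18, showed the same order of knockout libraries, at 35.8, 25.6 and 35.9 CPM against 26.04, 26.5 and 23.4, and was not called (0.36, SE 0.145, edgeR adjusted p = 0.136). Per length, Cdkn2d made up 68.7% to 72.1% of the INK4 FPKM in the knockout and 65.7% to 66.6% in the wild type. Cdkn1b, which encodes the CDK2 inhibitor p27, was at 87.8, 85.7 and 103 CPM against 79.7, 75.1 and 71.2. Its groups did not overlap, but it was not called (0.29, SE 0.0999, edgeR adjusted p = 0.0869).

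Of the pocket protein genes, Rbl1, which encodes p107, was called higher and Rb1 and Rbl2 were not called. Rbl1 (ENSMUSG00000027641; chromosome 2, 156987813 to 157046454, minus strand) measured 132, 156 and 126 CPM across the knockout libraries and 102, 108 and 111 across the wild type, with no overlap and knockout library 2 the highest. The log2 fold change was 0.37 (SE 0.104, edgeR adjusted p = 0.0494), the largest p of the 8 calls, and the call was lost when any 1 library except knockout library 2 was left out (edgeR adjusted p up to 0.133). Rb1 was low, at 8.44, 12.8 and 9.04 CPM against 10.2, 9.73 and 8.64, and its groups overlapped (0.09, SE 0.182, edgeR adjusted p = 0.769). Rbl2, which encodes p130, was at 32.0, 40.3 and 32.9 CPM against 30.8, 33.5 and 36.6 (0.06, SE 0.121, edgeR adjusted p = 0.761). Per length Rbl1 led the family in every library, with 77.7% to 79.6% of the pocket protein FPKM in the knockout and 74.6% to 74.9% in the wild type. Rb1 itself gave 5.09% to 7.45%.

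Among the E2F genes 1 of 8 was called, where 15.2% of all tested genes were. E2f4 (ENSMUSG00000014859; chromosome 8, 106024295 to 106032002, plus strand), the factor that pairs with p107 and p130 to repress cell cycle genes in resting cells, was at 110, 108 and 109 CPM in the knockout and at 127, 146 and 140 in the wild type. The knockout libraries were tight and below every wild-type library. The log2 fold change was -0.34 (SE 0.0857, edgeR adjusted p = 0.0323), and the call was lost when library 1 or 3 of the knockout or library 2 or 3 of the wild type was left out (edgeR adjusted p up to 0.177). E2f1, an activator and itself an E2F target, was at 81.5, 62.5 and 85.4 CPM against 88.2, 83.5 and 82.9 (-0.15, SE 0.123, edgeR adjusted p = 0.443), with the low value in knockout library 2. E2f2 had nearly equal means of 56.1 ± 9.02 and 56.7 ± 4.63 CPM (SD, n = 3 each). The activator E2f3, at 61.8, 60.2 and 55.9 CPM against 71.4, 71.9 and 69.7, and the late repressor E2f8, at 73.9, 63.2 and 70.6 against 77.5, 89.6 and 84.6, had no overlap between groups but missed the threshold (edgeR adjusted p = 0.0647 and 0.0920). E2f5, E2f6 and E2f7 lay between -0.10 and 0.01 on the log2 scale. With GC trends removed, E2f1 (-0.22, edgeR adjusted p = 0.0492), E2f3 (-0.30, 0.0214) and E2f8 (-0.32, 0.0279) were also called lower. That fit called 20.2% of all tested genes. The E2F activators summed to 46.7 ± 5.32 FPKM in the knockout and 51.2 ± 1.36 in the wild type (SD, n = 3 each). That difference was within the spread of the knockout libraries.

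No A- or B-type cyclin was called. Ccna2, the S and G2 phase cyclin, was at 219, 253 and 219 CPM in the knockout and at 192, 219 and 223 in the wild type, with overlap (log2 fold change 0.12, SE 0.102, edgeR adjusted p = 0.454). Ccnb1 was at 138, 183 and 144 CPM against 137, 171 and 181 (-0.07, SE 0.145, edgeR adjusted p = 0.783), and the range within each group exceeded the difference of the means. Ccnb2 was at 181, 172 and 182 CPM against 126, 150 and 148, with no overlap. At a log2 fold change of 0.33 (SE 0.0954) it lay just outside the threshold (edgeR adjusted p = 0.0514), and it was called in 9 of 19 alternative settings. Cdk1, the kinase of mitosis, was at 237, 231 and 241 CPM against 249, 272 and 269, each knockout library below each wild-type library, and was not called (-0.15, SE 0.0832, edgeR adjusted p = 0.250). A processed pseudogene, Ccnb1-ps, had 1309 to 2061 counts per library beside 2926 to 5747 for Ccnb1, so the split of reads between them, and the value of Ccnb1, are uncertain. The pseudogenes of Ccnb2 and Ccnd3 had at most 28 and 40 counts. Ccna1 and Ccnb3, cyclins of the germ line, had 0 counts throughout, as did Ccnb1ip1, a ubiquitin ligase gene that the symbol pattern takes in.

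**Figure D4:**
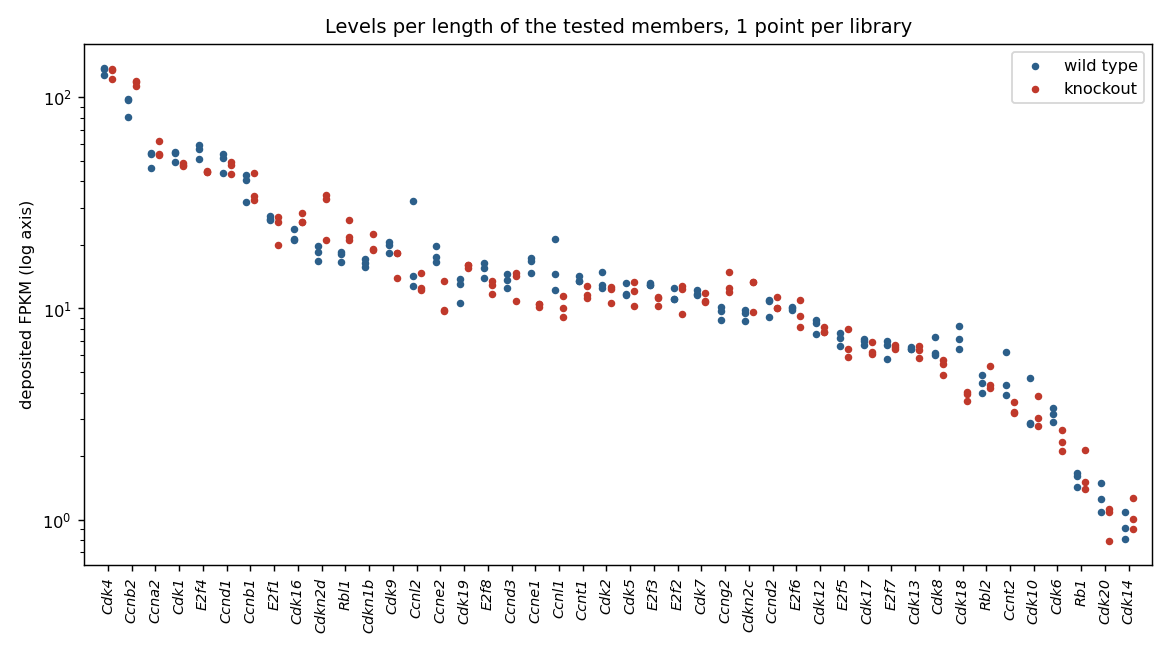
Deposited FPKM, a level per gene length, on a log axis for the 44 tested genes in falling order of the mean, with 1 point per library (blue wild type, red knockout). Cdk4 and Ccnb2 lead at means of 132 and 104 FPKM, and Cdk20 and Cdk14 close the order at 1.14 and 0.997.

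On the FPKM scale the order of levels was led by Cdk4 at 132, Ccnb2 at 104, Ccna2 at 54.0, Cdk1 at 50.5, E2f4 at 50.1, Ccnd1 at 48.2 and Ccnb1 at 37.6 (means of 6 libraries). Ccna2, Cdk1, E2f4 and Ccnd1 lie within the spread of their libraries and their order is not resolved. Ccne2 at 14.5 and Ccne1 at 13.3 lay close to Cdk2 at 12.7, while Rb1 at 1.63 stood near the lower end.

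The largest log2 fold change among the 44 tested genes was that of Cdk18, a PCTAIRE kinase outside the core cell cycle set. Cdk18 (ENSMUSG00000026437; chromosome 1, 132039975 to 132067422, minus strand) measured 19.3, 18.7 and 17.4 CPM across the knockout libraries and 39.9, 30.8 and 34.2 across the wild type. The groups were well apart, and wild-type library 1 was the highest. Group means were 18.5 ± 0.996 and 35.0 ± 4.64 CPM (SD, n = 3 each), which is 1.89-fold lower (log2 fold change -0.92, SE 0.121, edgeR adjusted p = 0.00303). Without any 1 library the edgeR adjusted p was at most 0.0175. Its PCTAIRE relatives Cdk16 and Cdk17 were not called. Cdk16, with 125, 111 and 113 CPM against 107, 92.6 and 93.6, had a log2 fold change of 0.25 (SE 0.0956, edgeR adjusted p = 0.112), and its groups did not overlap. Cdk5, Cdk10, Cdk14, Cdk17 and Cdk20 lay between -0.36 and 0.17, with overlapping groups, and Cdk15 had at most 3 counts in a library and was not tested.

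Ccng2 encodes cyclin G2, an unconventional cyclin that is high in cells leaving the cycle. Ccng2 (ENSMUSG00000029385; chromosome 5, 93415116 to 93424090, plus strand) measured 66.0, 81.1 and 68.0 CPM across the knockout libraries and 49.0, 55.7 and 53.2 across the wild type. Every knockout library was above every wild-type library. The log2 fold change was 0.45 (SE 0.106, edgeR adjusted p = 0.0271), and the call was lost when any 1 library except knockout library 2 was left out (edgeR adjusted p up to 0.0973).

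No cyclin or CDK of the transcription branch was called, and for 3 of the 4 cyclins the size of the difference depended on wild-type library 1. Ccnl1 and Ccnl2, whose products act with CDK11 in splicing, were at 60.6, 67.9 and 54.7 and at 78.1, 65.9 and 64.2 CPM in the knockout. In the wild type Ccnl1 was at 130, 73.2 and 87.4 CPM and Ccnl2 at 173, 67.3 and 75.6. Wild-type library 1 was the highest of the 6 for both genes. The log2 fold change of Ccnl1 was -0.66 (SE 0.199, edgeR adjusted p = 0.0578) and -0.38 without wild-type library 1. That of Ccnl2 was -0.60 (SE 0.325, edgeR adjusted p = 0.248) and -0.03 without it; Ccnl2 was picked after its values were seen. Ccnt2, a partner of CDK9 in the elongation factor P-TEFb, was at 39.9, 44.3 and 39.5 CPM against 78.1, 47.9 and 53.8 (-0.54, SE 0.173, edgeR adjusted p = 0.0712), and at -0.28 without wild-type library 1. Ccnt1, the other CDK9 partner, lay at -0.22 (SE 0.0877) with no overlap between the groups.

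The Mediator kinases Cdk8 and Cdk19, which replace each other in the same complex, lay on opposite sides of 0. Cdk19 was at 91.2, 93.5 and 93.8 CPM in the knockout and at 63.1, 81.1 and 76.0 in the wild type (0.34, SE 0.106, edgeR adjusted p = 0.0650). Cdk8 was at 54.2, 55.7 and 47.7 CPM against 73.5, 60.8 and 59.5 (-0.30, SE 0.112, edgeR adjusted p = 0.109). Neither passed the test, and neither pair of groups overlapped. On the FPKM scale Cdk19 made up 73.8% to 76.8% of the pair in the knockout libraries and 59.1% to 69.2% in the wild type. Cdk7, Cdk9, Cdk12 and Cdk13 lay between -0.23 and -0.05, with overlapping groups.

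Regulators and targets of these genes were taken from 7 lists of 138 genes, of which 137 were tested, 9 were higher and 7 lower. The share called was 11.7%, against 15.2% of all tested genes, and the median log2 fold change was 0.00. That order turned with the libraries used. Without knockout library 2, 31.2% of the listed genes and 28.1% of all tested genes were called, and without wild-type library 1 as well, 59.4% and 51.0%. Of 20 enzymes, ligase subunits and other regulators of CDK activity, 1 was higher and 3 lower (20.0% called, against 15.2% of all). Fzr1, which encodes the CDH1 activator of the anaphase-promoting complex in G1, was at 180, 143 and 173 CPM in the knockout and 93.7, 98.3 and 95.7 in the wild type (log2 fold change 0.79, SE 0.106, edgeR adjusted p = 0.00318). Cdc25a, the phosphatase that activates CDK2, was at 46.3, 38.6 and 43.3 CPM against 59.0, 61.7 and 65.2 (-0.54, edgeR adjusted p = 0.00996). The phosphatase gene Cdc14b fell by 0.67 (edgeR adjusted p = 0.00690). Skp2, the ligase subunit that marks p27 for breakdown, was at 86.0, 100 and 83.4 CPM against 121, 126 and 125 (-0.46, edgeR adjusted p = 0.0160). For these 4 genes the groups did not overlap. The calls of Cdc25a and Skp2 were lost in some fits that left out 1 library (edgeR adjusted p up to 0.0585 without knockout library 3 or wild-type library 3, and up to 0.113 on leaving out library 1 or 3 of the knockout or library 2 or 3 of the wild type).

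In the list of cyclins, CDKs and binding proteins whose symbols the pattern does not take in, 2 of 20 were higher and 1 lower. That is 15.0%, against 15.2% of all tested genes. Cdk5r1, which encodes the CDK5 activator p35, was at 2.28, 2.62 and 2.29 CPM in the knockout and 6.35, 6.36 and 5.94 in the wild type, 2.59-fold lower (log2 fold change -1.37, SE 0.171, edgeR adjusted p = 0.00252), beside the level of Cdk5 itself, which was not called (-0.03, SE 0.127). Cdk5rap3 was higher by 0.51 (edgeR adjusted p = 0.00810), a call that ended without wild-type library 3 (0.0544). The phosphatase gene Cdkn3 was higher by 0.42 (edgeR adjusted p = 0.0313), a call that was lost when any 1 library except knockout library 2 was left out (up to 0.111).

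Of 16 subunits of the DREAM and MuvB complexes and E2F partners, 1 was higher and 1 lower. That is 12.5%, against 15.2% of all tested genes. Tfdp1, the DNA-binding partner of the E2Fs, was at 211, 221 and 207 CPM against 272, 280 and 281 (-0.38, SE 0.0807, edgeR adjusted p = 0.0176). Foxm1, the activator of G2 and M phase genes, was at 143, 147 and 141 CPM against 115, 116 and 121 (0.29, SE 0.0780, edgeR adjusted p = 0.0404), a call that ended with GC trends removed (0.23, edgeR adjusted p = 0.115). Both calls were lost when library 1 or 3 of the knockout or library 2 or 3 of the wild type was left out (edgeR adjusted p up to 0.140 and 0.143). Of 24 G1/S genes that E2F drives, 1 was higher, the clamp loader subunit Rfc4 (0.44, edgeR adjusted p = 0.0172), and 0 were lower. Before adjustment, edgeR's p was under 0.05 for 3 higher and 3 lower genes of that list. Over all 14842 tested genes it was under 0.05 for 4607, 2306 higher and 2301 lower. Of 24 G2/M genes, 2 were higher, the kinase gene Aurkb (0.33, edgeR adjusted p = 0.0280) and Birc5, which encodes survivin (0.37, edgeR adjusted p = 0.0431), and 0 were lower, also by edgeR's p before adjustment. The calls of Rfc4 and Aurkb were lost when library 1 or 3 of the knockout or library 2 or 3 of the wild type was left out, and that of Birc5 when any 1 except knockout library 2 was (edgeR adjusted p up to 0.0695, 0.133 and 0.140). Both lists' splits changed when the libraries that stood apart in these data were left out. Without knockout library 2, 3 G1/S genes were higher and 2 lower, and 2 G2/M genes were higher and 2 lower. These are 20.8% and 16.7% of the lists, where 28.1% of all tested genes were called. Without wild-type library 1 as well, 5 G1/S genes were higher and 13 lower (75.0% called), and 3 G2/M genes were higher and 7 lower (41.7%). That fit called 51.0% of all tested genes, 3750 higher and 3806 lower. The list medians with all 6 libraries were -0.02 for G1/S and 0.01 for G2/M, against -0.02 for all tested genes. The shares called with all 6 were 4.2% and 8.3%, against 15.2% of all tested genes.

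Of 17 tested partners of CDK7, CDK8 and CDK9, 2 were higher and 1 lower. That is 17.6%, against 15.2% of all tested genes. Hexim2, an inhibitor of P-TEFb, was higher by 0.70 (edgeR adjusted p = 0.00893), at 14.9, 15.8 and 17.4 CPM against 10.8, 9.36 and 9.47. The elongation complex gene Aff1 was higher by 0.44 and the TFIIH subunit gene Gtf2h1 fell by 0.57 (edgeR adjusted p = 0.0146 and 0.0156). Both calls were lost when library 1 or 3 of the knockout or library 2 or 3 of the wild type was left out (edgeR adjusted p up to 0.0708 and 0.0920). Of 16 growth-signal inputs to the D cyclins, 0 were higher and 1 (6.25%) was lower, the MAX partner Mga (-0.48, edgeR adjusted p = 0.0265). That call was lost when any 1 library except knockout library 2 was left out (edgeR adjusted p up to 0.138). Before adjustment, edgeR's p was under 0.05 for 2 higher and 4 lower of these inputs, and for 4607 of all 14842 tested genes. The counts of the other lists also rose without knockout library 2 and wild-type library 1. The DREAM and E2F partner list then had 1 higher and 9 lower (62.5% called), and the regulators of CDK activity 5 and 7 (60.0%). The further cyclins and binding proteins had 9 and 6 (75.0%), and the partners of CDK7, CDK8 and CDK9 had 5 and 2 (38.9%). The growth-signal inputs had 5 and 5 (62.5%). That fit called 51.0% of all tested genes, 3750 higher and 3806 lower.

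The authors' deposited table calls 11 of the 45 members that have an adjusted p there, 24.4%, where it calls 9.98% of all genes with a value. Over the genes tested here, the authors' deposited table calls 11 of 44 members, 16.7% of all genes and 19.1% of the protein-coding ones. Its 11 members include all 8 called here, and the further 3 in the authors' deposited table are Ccnb2 (log2 fold change 0.32), Ccnl1 (-0.58) and Ccnt2 (-0.47).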

How the data were processed

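Samples were grouped by title and genotype label into 3 Matr3 knockout and 3 wild-type libraries. The authors deposited 1 table for the series, with raw counts per gene, FPKM values, and their own comparison: a signal (mean of scaled counts) per group, log2 fold changes and p-values. Per the labels' protocols, RNA came from a column kit and libraries from an mRNA-seq kit; the aligner, counter and strandedness were not given in the sources used here. Per the submitters' processing notes the builds are GRCm38 and mm10, yet 1 of the 50 members has the same start and end in the GRCm38 annotation (GENCODE M21), so gene coordinates follow the table and their build is not settled.

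The deposited counts were analysed with edgeR 4.0.16 (R 4.3.3): filterByExpr kept 14842 of the 27065 genes with a count, TMM scaled the libraries, and knockout and wild type were compared by the quasi-likelihood F test. P-values were adjusted by Benjamini-Hochberg over all tested genes and called under 0.05. SE follow from the F statistic, CPM use TMM-adjusted library sizes, and FPKM are as deposited. On simulated counts for this comparison (14617 genes) 94% of 2-fold changes were recovered, and 6.76% of the calls were false. The simulated libraries had no GC trend and none that stood apart. The largest change of a member was 1.89-fold. The simulation therefore does not give the power or the error rate for the members' calls. Alternatives were RLE factors, library totals, other filters, protein-coding genes, the replicate block, DESeq2 1.42.0, limma 3.58.1 (voom, log2(FPKM + 1) and log2(FPKM + 0.1)), adjusted p under 0.01, removal of GC trends (lowess on the GC content of the longest GENCODE M21 transcript) and left-out libraries. The members, the lists and the rule for naming genes were chosen with earlier results of these data known. The rule names every called member, a fixed set of central members with all values, and up to 4 genes per list with the smallest p. The promoters shown were chosen after values and motifs were seen.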

Additional observations from a re-analysis of the deposited data

How the results depend on the processing

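Against 2252 genes, 8 members and 16 listed genes called, an adjusted p under 0.01 gave 721, 2 and 6. With knockout library 2 and wild-type library 1 both left out the counts were 7556, 25 and 82, and leaving out 1 library gave 807 to 4295, 2 to 16 and 4 to 43. With GC trends removed, 2995 genes (20.2%), 14 members (31.8%) and 25 listed genes (18.2%) were called. The members gained were Ccnb2, Cdk19, Cdkn2c, E2f1, E2f3 and E2f8. With limma on log2(FPKM + 1) or log2(FPKM + 0.1) it was 4 members each (9.1%, against 11.5% of all genes). The replicate numbers did not pair the libraries (same-numbered deviations correlated at 0.17, -0.03 and -0.20). With the replicate number as a block 4 members were called, Ccne1, Ccne2, Cdk18 and Ccng2 (9.1%, against 10.8% of all tested genes). E2f2 changed sign and was called without knockout library 2 and wild-type library 1 (0.18, edgeR adjusted p = 0.0204). The cause was not tested in any of these cases. Under RLE factors 7 of the 8 calls remained and Ccnb2 replaced Rbl1; under library totals 7 remained, Cdk6 was lost and Ccnb2 and Cdk19 were added, so that 5 members were higher and 4 lower, against 3 and 5. Ccne1 and Cdk18 were called in all 19 settings.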
